A study of Arabidopsis thaliana with 6 samples.

Results

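UDP-glycosyltransferases (UGTs) are enzymes that move a sugar, most often glucose, from a UDP-sugar onto a small acceptor molecule. In Arabidopsis their acceptors include hormones, monolignols, flavonoids, defence acids and foreign compounds, and the sugar usually makes the acceptor more soluble, inactive or ready for storage in the vacuole. The number in a UGT name gives the family, set by sequence likeness, and the letter the subfamily. Lignin precursors are one class of acceptor, and ATHB8, the factor induced here, is known for its expression in procambium, from which lignified xylem forms.

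The UGT genes described here are those whose row on the array names exactly 1 gene with a symbol of UGT plus a number. They number 51 of 16550 named genes, in 12 families from UGT71 to UGT89, and all 51 matched a RefSeq gene. For 5 of them, which have 2 rows, the row with the higher mean over all 6 arrays was used. The induced group holds 3 arrays of suspension cells, labelled as a culture named Alex and grown in the dark, that carry an estrogen-inducible ATHB8-GFP fusion and had received 5 µM estrogen for 24 h. The uninduced group holds 3 arrays of cells with the same transgene, sampled after 24 h without estrogen. No cells without the transgene are among the samples, so an effect of estrogen itself and one of the fusion cannot be told apart. The labels do not say whether the culture comes from 1 transformed line or whether replicates are separate cultures, so p-values may measure only technical spread. With cells measured in bulk, fewer cells of a type and less RNA per cell cannot be told apart.

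The arrays carry 38408 rows of log2 signals, and the array medians lay between 5.80 and 5.95. The 2 arrays numbered replicate 1 hold exactly the same value in 31.8% of all rows and in 44.4% of named genes. They do so in 28 of the 51 UGT genes (54.9%), against 0 UGT genes in any other pair of arrays. For those 28 genes the difference between the groups comes from replicates 2 and 3 alone. Of 23 marker genes of green, dividing, xylem and phloem cells 1 has a row under its name, so the cell type was not checked. That gene, AUR1, a mitotic kinase, differed by -0.42 (limma adjusted p = 0.175), and its part in the results below was not tested. ATHB8 has 0 rows under its name or locus code, so its induction was not checked either.

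Among the UGT genes 1 fell in the induced cells and 0 rose, at a limma adjusted p under 0.05 over all rows. The gene that fell was UGT72E1, and the genes with the next smallest p, UGT76C2, UGT87A2, UGT85A7, UGT76B1 and UGT71B5, did not pass. Over all named genes 0.411% fell and 0.719% rose, and 1 gene of 51 is too few to set against that background. At an unadjusted p under 0.05, 5 UGT genes lay lower and 1 higher, where 4.71% of named genes lay lower and 4.01% higher. The same 5 genes were those whose induced arrays all lay below the uninduced arrays, which holds for 6.99% of named genes, and the same 1 gene, UGT85A7, was the only UGT gene with all induced arrays above, which holds for 5.95%.

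UGT72E1 (AT3G50740) encodes a glucosyltransferase of coniferyl and sinapyl aldehyde, the aldehyde forms of the lignin monomers. Its log2 signal was 8.06, 8.09 and 8.17 in the induced arrays, against 8.96, 9.09 and 8.92 in the uninduced arrays. The groups lay well apart, and each group spanned much less than the gap between them. The means were 8.11 ± 0.06 in induced cells and 8.99 ± 0.09 in uninduced cells (SD, n = 3 each), a fall of the induced signal to 0.542 times the uninduced one. The log2 difference was -0.88 ± 0.11 (SE; 95% interval -1.14 to -0.63; limma adjusted p = 0.0268), and the same-numbered pairs gave -0.91, -1.00 and -0.75. With the replicate number as a block, which called 0.236% of named genes lower, the adjusted p was 0.0614 and the call ended. It also ended without any 1 array (adjusted p 0.0821 to 0.17, difference -0.92 to -0.84), where 1 to 16 named genes were called lower, against 68 with all arrays.

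The other UGT72 genes did not pass, and both further UGT72E genes lay at the low end of the array. UGT72E2 (AT5G66690) and UGT72E3 (AT5G26310), which glucosylate coniferyl and sinapyl alcohol, had uninduced means at percentiles 7.23 and 13.2 of all rows. UGT72E2 read 2.79, 2.45 and 2.07 in the induced arrays, against 2.18, 2.63 and 2.68 in the uninduced arrays, so the groups overlapped and the pairs went in both directions. Its difference was -0.06, with a 95% interval of -0.62 to 0.50. UGT72E3 read 3.70, 2.01 and 2.84 in induced cells, against 3.70, 2.34 and 2.82 in uninduced cells. Its interval, -1.35 to 1.14, does not exclude a 2-fold change in either direction. The replicate 1 arrays held the same value, above all the others, and the pairs of replicates 2 and 3 gave -0.33 and 0.02. UGT72B3, the remaining UGT72 gene, differed by -0.06 (interval -0.40 to 0.29). No background level was analysed here, so signals this low are not shown to lie above background.

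**Figure D1:**
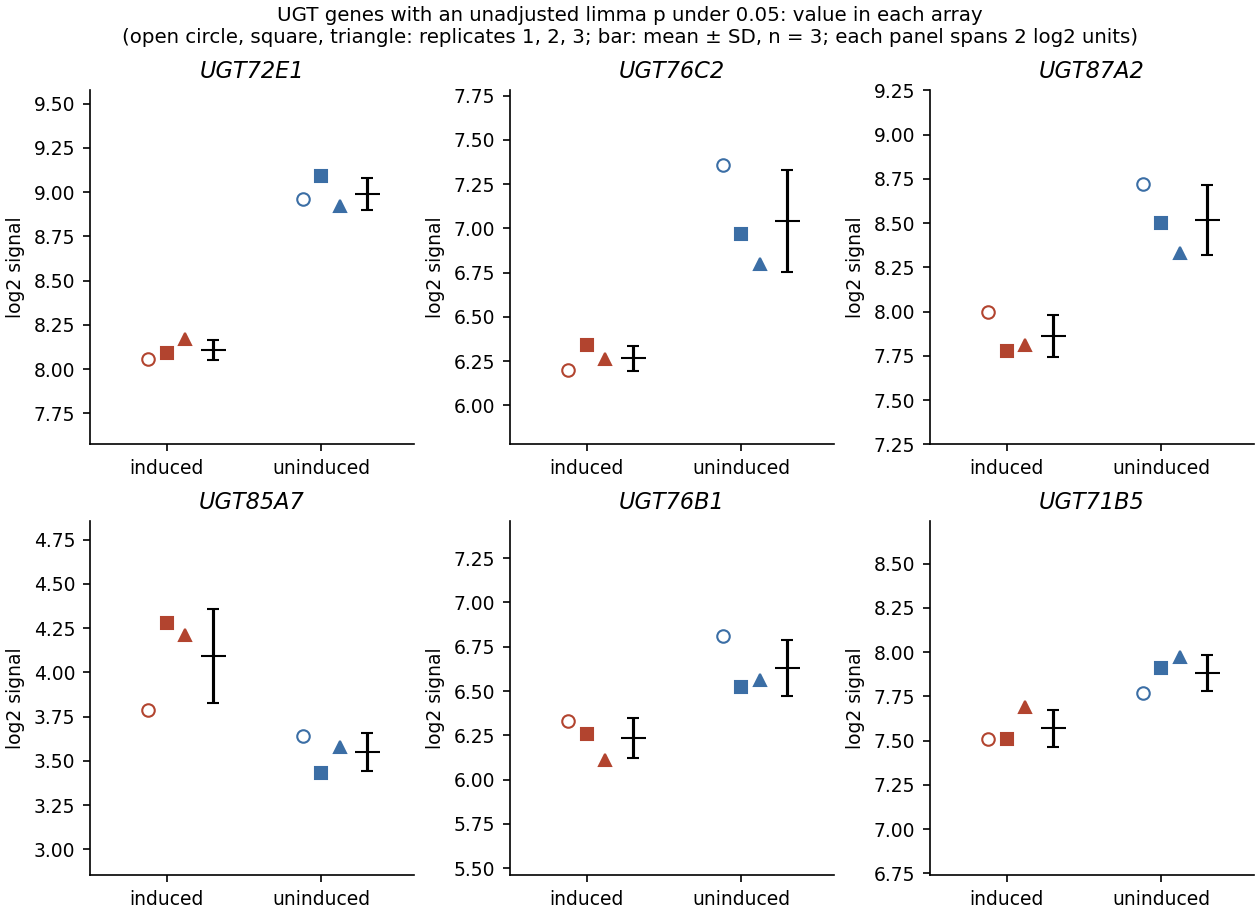
Log2 signal (vertical axis) of the 6 UGT genes with an unadjusted p under 0.05, in the 3 induced (left, red) and 3 uninduced (right, blue) arrays of each panel, with mean ± SD beside each group. UGT72E1 shows the widest gap against its spread, UGT76C2 has its highest uninduced value, 7.36, in replicate 1, and UGT85A7 has its lowest induced value, 3.79, in replicate 1.

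UGT76C2 (AT5G05860), which attaches glucose to ring nitrogens of cytokinins and so inactivates them, had the next largest difference. Its signal was 6.20, 6.34 and 6.26 in the induced arrays, against 7.36, 6.97 and 6.80 in the uninduced arrays. All induced values lay lower and close together, while the uninduced values were spread more widely. The difference was -0.77 ± 0.17 (SE; 95% interval -1.18 to -0.37), with an unadjusted p of 0.00309 and a limma adjusted p of 0.132. UGT76C1 (AT5G05870), its neighbour on the chromosome and also a cytokinin N-glucosyltransferase, read 6.22, 6.16 and 6.24 in induced cells, against 6.41, 5.93 and 6.29 in uninduced cells. Its difference was -0.01, with an interval of -0.37 to 0.36. The difference of UGT76C2 minus that of UGT76C1 was -0.77. The gap between both genes' signals did not overlap between the groups, which adds little, since UGT76C2 alone already stood apart. It was 1 of 6 pairs compared, and the gaps of UGT72E1 with UGT72E3 and of UGT73B3 with UGT73B1 overlapped. The pair of UGT76C2 and UGT76C1 was chosen after its values were seen, so no test is given.

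UGT87A2 (AT2G30140), known for its effect on flowering time through the repressor FLC, read 8.00, 7.78 and 7.81 in induced cells, against 8.72, 8.50 and 8.33 in uninduced cells. The groups did not overlap, and the pairs gave -0.72, -0.73 and -0.52. The difference was -0.65 ± 0.14 (SE; limma adjusted p = 0.14; 0.0802 with the replicate block). It passed when the block only set replicate 1 apart from replicates 2 and 3 (adjusted p = 0.0316), a fit in which 1.65% of named genes were called lower.

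UGT76B1 (AT3G11340), which glucosylates isoleucic acid, salicylate and N-hydroxypipecolic acid and thereby tunes defence, read 6.33, 6.26 and 6.11 in the induced arrays, against 6.81, 6.52 and 6.56 in the uninduced arrays. The values stood apart by a small margin, and the difference of -0.40 ± 0.13 did not pass (limma adjusted p = 0.38). UGT71B5 (AT4G15280) read 7.51, 7.51 and 7.69 in induced cells, against 7.77, 7.91 and 7.97 in uninduced cells. Here too the lowest uninduced value lay just above the highest induced one, and the difference was -0.32 ± 0.12 (limma adjusted p = 0.481).

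UGT85A7 (AT1G22340) had the largest difference upward. It read 3.79, 4.28 and 4.21 in the induced arrays, against 3.64, 3.43 and 3.58 in the uninduced arrays. The groups did not overlap, but the replicate 1 pair differed by only 0.15 where the other pairs differed by 0.85 and 0.64. The difference was 0.55 ± 0.16 (SE; limma adjusted p = 0.307), from an uninduced mean at percentile 21.5 of all rows. UGT73B3 (AT4G34131), known with UGT73B5 from the hypersensitive response to Pseudomonas, read 3.59, 4.15 and 4.01 in induced cells, against 3.17, 3.70 and 3.60 in uninduced cells. The groups overlapped because replicate 1 lay lower in both, while the pairs were nearly equal at 0.42, 0.44 and 0.41. Its difference of 0.42 ± 0.21 did not pass with or without the replicate block (limma adjusted p = 0.104 and 0.738).

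UGT73B5 (AT2G15480) read 5.37, 5.43 and 4.66 in the induced arrays, against 5.88, 5.67 and 5.41 in the uninduced arrays. The highest induced value exceeded the lowest uninduced one, and the difference of -0.50 ± 0.25 did not pass (limma adjusted p = 0.735). UGT78D2 (AT5G17050), the flavonoid 3-O-glucosyltransferase, read 5.02, 4.95 and 4.74 in induced cells, against 4.48, 4.52 and 4.96 in uninduced cells. In replicate 3 the order of the groups was the opposite of that in the other replicates, and the difference was 0.25 ± 0.17 (limma adjusted p = 0.936). UGT73C7 (AT3G53160), reported to act on hydroxycinnamic acids, read 3.81, 3.89 and 3.61 in induced cells, against 3.81, 2.76 and 3.78 in uninduced cells. Its difference of 0.32 ± 0.30 rests on 1 array: without uninduced replicate 2 it was -0.03.

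UGT85A2 and UGT74D1, also among the UGT genes with high signal, did not pass. UGT85A2 (AT1G22360) had the highest uninduced mean of the UGT rows, at percentile 94.9 of all rows. It read 10.40, 10.81 and 10.62 in the induced arrays, against 10.52, 10.91 and 10.77 in the uninduced arrays. The pairs gave -0.12, -0.11 and -0.15, a difference of -0.13 with a 95% interval of -0.52 to 0.27. UGT74D1 (AT2G31750), a glucosyltransferase of indole-3-acetic acid, read 7.29, 7.22 and 7.06 in induced cells, against 7.45, 7.21 and 7.18 in uninduced cells. Its groups overlapped, with a difference of -0.09 and an interval of -0.40 to 0.22. Signals of different rows also depend on their probes, so percentiles describe rows and do not order the transcripts.

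**Figure D2:**
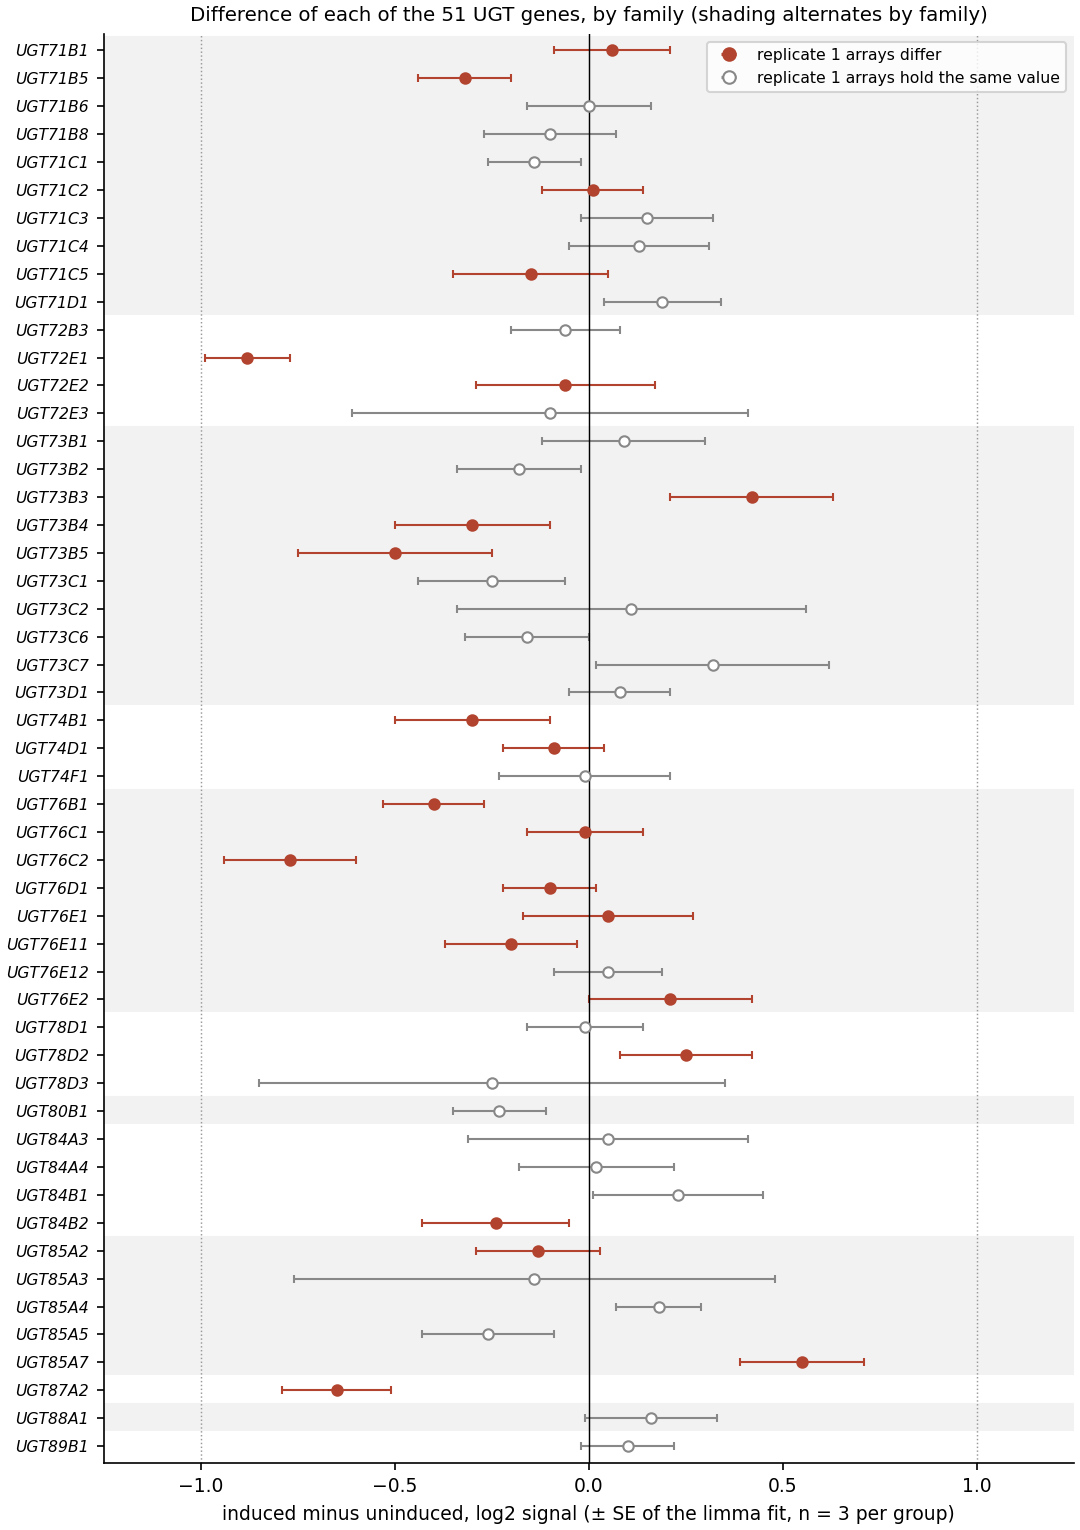
Induced minus uninduced difference in log2 signal (horizontal axis, with the SE of the limma fit) for each of the 51 UGT genes, grouped by family. Filled points are the genes whose replicate 1 arrays differ and open points the 28 whose replicate 1 arrays hold the same value. The differences run from -0.88 in UGT72E1 to 0.55 in UGT85A7, and no gene reaches the dotted lines at a 2-fold change.

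Over the 51 genes, 30 lay lower and 21 higher in the induced cells, where 8798 of 16550 named genes lay lower. The median log2 difference was -0.06, against -0.01 over all named genes. The interquartile range ran from -0.21 to 0.09, and 48 of the 51 differed by less than 1.5-fold. For 43 of the 51 the 95% interval lay within a 2-fold change in both directions, while 14989 of the 16550 named genes had such an interval. The other 8 were UGT72E1, UGT76C2, UGT73B5, UGT73C7, UGT72E3, UGT73C2, UGT78D3 and UGT85A3. The median of the same-numbered pairs was 0.00, -0.08 and -0.04. In all pairs 9 genes lay lower, among them UGT71C5, UGT73B4 and UGT85A2 beside UGT73B5 and the 5 lower genes above, and 2 lay higher, UGT85A7 and UGT73B3. Of all named genes 16.7% lay lower and 14% higher in all pairs, so the 9 lower genes are close to the background share.

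The genes that lay lower at an unadjusted p under 0.05 were all among the UGT genes with higher signal. Of 12 UGT genes whose mean over all arrays exceeded that of the median row, 9 lay lower, 5 of them at an unadjusted p under 0.05, and the median difference was -0.13. Of the 7808 named genes above the median row 4166 lay lower. At that p 7.58% of the 7808 lay lower, and their median difference was -0.01. Of the 39 UGT genes at or below the median row 21 lay lower and 18 higher, with a median difference of -0.01. At that p 0 of them lay lower and 1 higher, UGT85A7, where 2.14% of named genes at or below the median row lay lower and 2.7% higher. In these 39 genes the replicate 1 arrays held the same value in 24, against 4 of the 12 with higher signal. Over all named genes the share with the same value was 44.4%, and over those above the median row 23%. The median SE of the limma fit was 0.14 in the 12 genes and 0.19 in the 39, so small p-values are easier to reach in the 12. The part of the equal values and of this precision in the contrast was not tested.

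**Figure D3:**
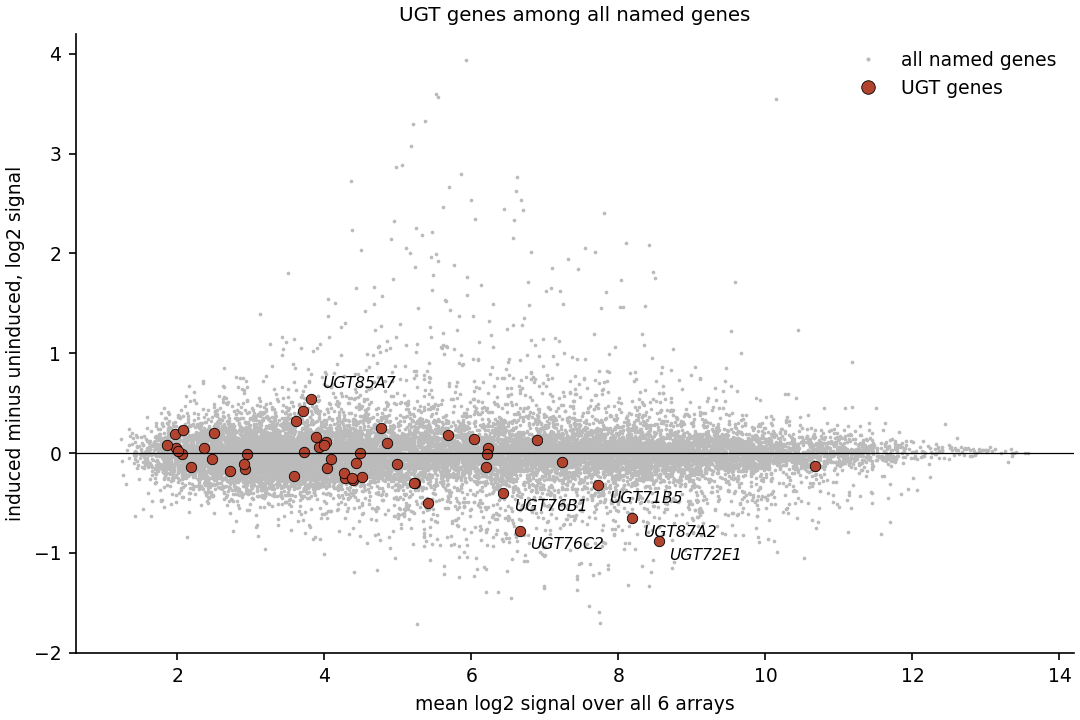
Induced minus uninduced difference (vertical axis, log2 signal) against mean log2 signal over all 6 arrays (horizontal axis) for all named genes (grey) and the 51 UGT genes (red). The labelled genes are the 6 with an unadjusted p under 0.05: the 5 lower ones lie above a mean signal of 6 and UGT85A7 lies near 4.

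By family, the 10 UGT71 genes had a median difference of 0.00 and ranged from -0.32 in UGT71B5 to 0.19 in UGT71D1. They include UGT71B6 and UGT71C5, which glucosylate abscisic acid, and UGT71C3, which acts on methyl salicylate. UGT71B6 differed by -0.00, UGT71C5 by -0.15 and UGT71C3 by 0.15. The 10 UGT73 genes had a median of -0.04, with 5 higher and 5 lower, from -0.50 in UGT73B5 to 0.42 in UGT73B3. The neighbours UGT73B5 and UGT73B4 lay lower by 0.50 and 0.30 on the log2 scale, while in the neighbouring trio UGT73B3, UGT73B2 and UGT73B1 the differences were 0.42, -0.18 and 0.09. UGT73C6, which acts on flavonols and brassinosteroids, differed by -0.16.

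The 8 UGT76 genes had a median of -0.06, with 5 lower and 3 higher. UGT76E1, UGT76E2, UGT76E11 and UGT76E12, listed here with jasmonate conjugation, ranged from -0.20 in UGT76E11 to 0.21 in UGT76E2, and UGT76D1 differed by -0.10. The 5 UGT85 genes had a median of -0.13 and stood far apart in signal, with uninduced means from 2.25 in UGT85A3 to 10.74 in UGT85A2. UGT85A7, UGT85A2, UGT85A5 and UGT85A3 follow each other on the chromosome, and their differences in that order were 0.55, -0.13, -0.26 and -0.14. The 4 UGT84 genes had a median of 0.03. The medians of UGT84 and UGT85 changed sign when single arrays were left out, with ranges of -0.18 to 0.23 and -0.11 to 0.26. Among them UGT84A3 and UGT84A4, which make glucose esters of hydroxycinnamic acids, differed by 0.05 and 0.02, and UGT84B1, which conjugates indole-3-acetic acid, by 0.23. Their uninduced means lay at percentiles 2.65, 2.94 and 2.67 of all rows, and their replicate 1 arrays held the same value. The 95% interval of UGT84A3 was -0.83 to 0.92. The pairs of UGT84B1 gave 0.00, -0.12 and 0.80, so its difference rests on replicate 3. The median of the 4 UGT72 genes was -0.08, although 1 of them fell by 0.88 on the log2 scale.

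Families with fewer members were described gene by gene. UGT74B1, of glucosinolate synthesis, read 5.34, 4.73 and 5.18 in the induced arrays, against 5.57, 5.41 and 5.16 in the uninduced arrays, with overlapping groups. Its difference was -0.30, and UGT74F1, a salicylate glucosyltransferase, differed by -0.01. In the flavonoid family UGT78, UGT78D1, a flavonol rhamnosyltransferase, differed by -0.01 and UGT78D3, an arabinosyltransferase, by -0.25. UGT78D3 read 3.35 in both replicate 1 arrays, 4.55 and 4.85 in the other induced arrays and 4.97 and 5.16 in the other uninduced arrays. Replicate 1 lay well below the rest of both groups, which leaves an interval of -1.70 to 1.20. UGT80B1, a sterol glucosyltransferase, differed by -0.23, UGT88A1 by 0.16 and UGT89B1 by 0.10, and in all 3 genes the replicate 1 arrays held the same value.

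Grouped by known acceptor, the lists held 30 UGT genes with a row. Of 5 genes for hydroxycinnamates and monolignols 1 fell, UGT72E1, against 0.411% of named genes, and the list median was -0.06. As given above, that call ended with the replicate block (limma adjusted p = 0.0614) and without any 1 array. Over all named genes 8798 of 16550 lay lower, so counts by direction in lists this short say little. Of 3 genes for cytokinins 0 passed. All 3 had a difference under 0, but that of UGT76C1 was only -0.01. Their median, -0.25, is the value of UGT73C1, with an interval of -0.72 to 0.22. Its replicate 1 arrays held the same value, and its other pairs gave -0.59 and -0.17. The 3 genes for abscisic acid had a median of -0.10, and 0 passed. UGT71B6 differed by -0.00, and the replicate 2 and 3 pairs of UGT71B8 gave 0.22 and -0.52. Of 6 genes for flavonoids 4 lay lower, of 4 for salicylate and related acids 3 lay lower, of 3 for auxins 2 lay lower and of 4 for jasmonates 1 lay lower. In these last 4 lists 0 genes passed in limma, and UGT76B1 alone had an unadjusted p under 0.05. The lists for glucosinolates, brassinosteroids and sterols had a row for 1 gene each, given above.

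Genes of the pathways that supply UGTs, beta-glucosidases and glutathione S-transferases gave 0 calls in either direction among 40 with a named row. Over all named genes 0.411% fell and 0.719% rose, so 0 calls among 40 genes is near that share and no result about them. CCR2 (AT1G80820), a cinnamoyl-CoA reductase that makes the aldehydes UGT72E1 acts on, read 6.77, 6.12 and 6.60 in induced cells, against 7.58, 7.26 and 7.70 in uninduced cells. All induced values lay below all uninduced ones, and the difference was -1.02 ± 0.21 (SE; limma adjusted p = 0.119; 0.0638 with the replicate block). HCT, an earlier step of the same pathway, differed by -0.11, with an interval of -0.38 to 0.16. They were the 2 of 16 listed genes of phenylpropanoid and monolignol synthesis with a named row. BGLU45 and BGLU46, glucosidases that release monolignols, differed by 0.05 and 0.14, with intervals of -0.36 to 0.47 and -0.20 to 0.48. The uninduced mean of BGLU45 lay at percentile 2.29 of all rows, and its replicate 1 arrays held the same value. DFR and BAN of flavonoid synthesis differed by -0.09 and -0.06, and USP, which makes UDP-sugars, by -0.09.

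Of the 22 beta-glucosidases, which split glucosides, 15 lay higher and 7 lower, with a median of 0.04. In 11 of the 22 the replicate 1 arrays held the same value (44.4% of named genes), and 11 had a mean signal under the 25th percentile of rows. BGLU21 (AT1G66270) read 8.53, 8.66 and 8.65 in induced cells, against 9.26, 9.42 and 9.58 in uninduced cells, with no overlap. Its difference of -0.80 ± 0.12 narrowly missed the threshold (limma adjusted p = 0.0516), and it passed with the block for replicate 1 alone (0.0192) but not with a block for each replicate number (0.0634). BGLU15 differed by -0.67 ± 0.12 (limma adjusted p = 0.0742; 0.0475 with the block for replicate 1 alone and 0.116 with a block for each replicate number). Of the 13 glutathione S-transferases, another class of conjugating enzymes, 10 lay lower and 3 higher, with a median of -0.11. In 8 of the 13 the replicate 1 arrays held the same value, and 7 had a mean signal under the 25th percentile of rows. GSTU25 read 6.40, 5.87 and 5.93 in induced cells, against 7.15, 6.79 and 6.70 in uninduced cells, a difference of -0.81 ± 0.20 (limma adjusted p = 0.19). Its adjusted p was 0.0160 with the block for replicate 1 alone and 0.0596 with a block for each replicate number. GSTF3 and GSTU23 differed by -0.74 and -0.54, with adjusted p of 0.321 and 0.295.

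**Figure D4:**
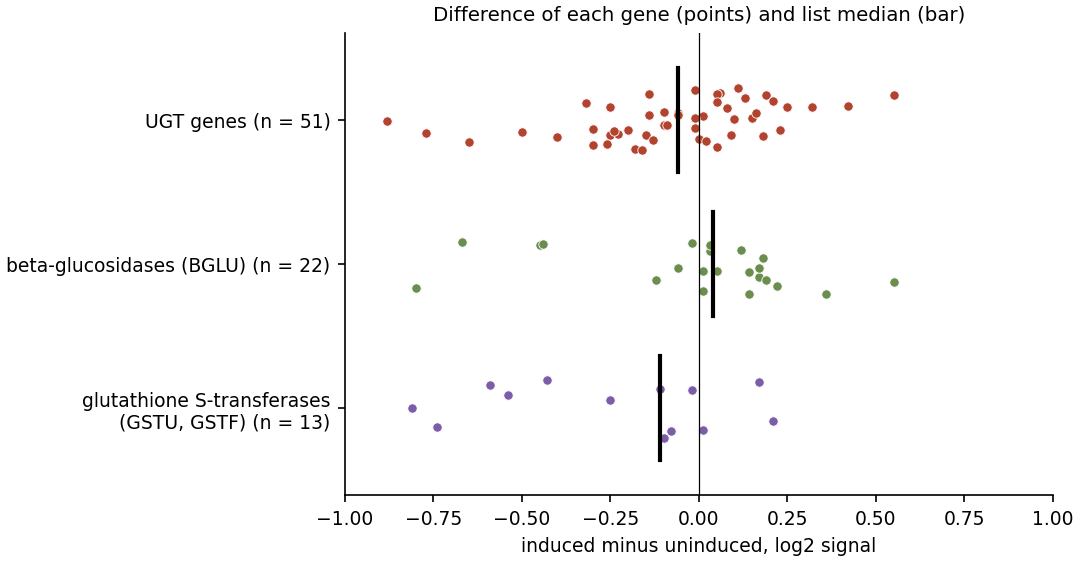
Induced minus uninduced difference in log2 signal (horizontal axis) of each gene in 3 lists, the UGT genes, the beta-glucosidases and the glutathione S-transferases, with a bar at each list median. The medians are -0.06, 0.04 and -0.11, and every gene lies within a 2-fold change. The replicate 1 arrays hold the same value in 28, 11 and 8 of the genes.

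The 5 UGT genes with 2 rows gave differences that agreed within their intervals. UGT74D1 read a mean of 7.28 in uninduced cells on the row used and 3.36 on the other, with differences of -0.09 and -0.01. UGT85A4 differed by 0.18 on the row used and by 0.23 on the other, and UGT73C6 by -0.16 and -0.27. RefSeq lists 4 further genes with a UGT synonym that the array names otherwise. They are SGT (UGT80A2), a sterol glucosyltransferase, GT72B1 (UGT72B1), UF3GT (UGT79B1), which acts on anthocyanins, and AT5G54010 (UGT79B6). Their differences were -0.07, 0.07, -0.18 and 0.04, and their replicate 1 arrays held the same value in all 4.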

How the data were processed

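Log2 expression values were deposited by the authors for each row of the array. The submitters' processing notes name Affymetrix Expression Console 1.3. Background correction, normalization, summarization and genome build are not given in the sources used here, so the deposited values were left as they are and coordinates are left out. Rows were named through the array's annotation, and a RefSeq gene table gave locus codes and neighbours among protein-coding genes. No sequences were used here.

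The comparison of induced with uninduced arrays used limma 3.58.1 (R 4.3.3; lmFit and eBayes with default settings, two-sided, no block, no filter). Its p-values were adjusted by Benjamini-Hochberg over the 38408 rows, and 0.05 was the threshold. The fit was tested on simulated data with independent errors. These lacked the shared replicate deviations and equal replicate 1 values of the real arrays, so that test does not cover them. With 3 arrays a group, an exact permutation test cannot go below 0.10. The number of arrays limits the precision. Same-numbered arrays deviated together from the means of their groups, with correlations of 0.633, 0.268 and 0.248 across rows. All lie above 0.1, the cutoff used for pairing, but the other pairings of replicates 2 and 3 gave 0.244 and 0.260. The correlations therefore set only replicate 1 apart and do not show that replicates 2 and 3 pair by number. The reported fit used no block, and fits with a block are given as alternatives. A block for replicate 1 alone was added because the replicate 1 arrays share values.

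The members, lists and tests were chosen with earlier results of these data known. Genes named with all values were those with an unadjusted p under 0.05, the 4 largest differences in each direction, the 5 highest uninduced means, and members of the acceptor lists whose groups do not overlap. Other genes were named for their place in a family, pair or list. Of the related lists up to 3 genes with the smallest p were named. BGLU45 and BGLU46 were added after their values were seen. The alternatives were array weights, blocks, low-signal filters, quantile or median normalization, a trended prior, arrays left out, row choices and thresholds. Python 3.11.15 and matplotlib 3.10.9 drew the figures.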

Additional observations from a re-analysis of the deposited data

How the results depend on the processing

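The number of UGT genes that fell, 1 in the reported fit, was 0 with the replicate block, 0 in replicates 2 and 3 alone and 0 without each array in turn. It was 2 with array weights, 2 with a replicate block for replicate 1 alone, 3 with a filter at the median signal, and 5 at an unadjusted p under 0.05. Among the 16550 named genes 68 fell in the reported fit, 39 with the replicate block and 231 with array weights. With the block for replicate 1 alone 273 fell, with the median filter 245 and at an unadjusted p under 0.05 779. The UGT count stayed at 1 with the 25th percentile filter, a trended prior with or without robust fitting, and rows that name a single gene. In those settings 156 to 190 named genes fell. UGT counts this small do not show whether they moved with the whole array. The number of UGT genes that rose was 1 at an unadjusted p under 0.05 and 0 in every other alternative run. The related genes that fell, 0 in the reported fit, numbered 2 with the 25th percentile filter, a trended prior with or without robust fitting, rows that name a single gene, or a threshold of 0.10, and 3 with the median filter, array weights or the block for replicate 1 alone. They numbered 6 at an unadjusted p under 0.05. Named genes that fell numbered 163 with the 25th percentile filter, 190 with the trended prior, 179 with robust fitting added, 156 over rows that name a single gene and 170 at a threshold of 0.10.

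UGT87A2 passed with the median filter (adjusted p = 0.0409), array weights (0.0438) and the block for replicate 1 alone (0.0316), and UGT76C2 with the median filter (0.0412). UGT72E1 kept its direction in all 18 alternatives run for it and passed in 10, and did not pass in replicates 2 and 3 alone (0.124). The replicate block changed no other call among the 12 UGT genes named by rule.

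The median difference of the UGT genes was -0.10 with the 25th percentile filter and -0.13 with the median filter, and lay between -0.12 and 0.00 without each array. The filters also moved the medians of UGT71 to -0.05, UGT73 to -0.25 and UGT85 to 0.03 (25th percentile), since they leave fewer genes. UGT72 had a median of -0.28 in replicates 2 and 3 alone. Without each array in turn the family medians ran from -0.01 to 0.03 for UGT71, -0.38 to -0.03 for UGT72, -0.19 to -0.01 for UGT73, -0.14 to -0.03 for UGT76, -0.18 to 0.23 for UGT84 and -0.11 to 0.26 for UGT85, so UGT84 turned lower without induced replicate 1 or uninduced replicate 2 or 3, and UGT85 higher without induced replicate 2 or 3 or uninduced replicate 1. Families with fewer than 4 genes left under a filter have no value there. Signals near the low end of the array, without a measured background, limit what could be detected in the 18 UGT genes under the 25th percentile of rows.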
